A study of Homo sapiens with 3 samples.

Results

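The genes described here encode the histone H3 lysine 4 (H3K4) methyltransferases of the COMPASS and MLL families and the core that these enzymes share. They were chosen by name, as 10 of the 20033 protein-coding genes with a canonical transcript on the main chromosomes: KMT2A, KMT2B, KMT2C, KMT2D, SETD1A, SETD1B, WDR5, ASH2L, RBBP5 and DPY30. Chromatin immunoprecipitation followed by sequencing (ChIP-seq) had been done on wild-type neural stem cells (hNSCs) derived from the established human embryonic stem cell line H9, with antibodies against CHD8, TRRAP or, as a control, IgG. The cells were fixed with 2 mM disuccinimidyl glutarate and 1% formaldehyde, and the chromatin was sheared by 14 cycles of sonication. Each antibody had 1 library from a single untreated culture condition, so no comparison has a replicate check and no p-value is given. Values below come from the CHD8 and TRRAP peak lists; IgG was not analysed here. Peak lists hold no expression values, so the neural stem cell label was not checked against marker genes.

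COMPASS complexes place methyl groups on H3K4, a mark of active promoters and enhancers. SETD1A and SETD1B supply most trimethylation at promoters, KMT2A and KMT2B act at developmental and CpG-rich promoters, and KMT2C and KMT2D monomethylate enhancers. All need a core named WRAD, made of WDR5, RBBP5, ASH2L and DPY30, which stimulates catalysis. CHD8 is a chromatin remodeler that has been reported to bind WRAD subunits, and TRRAP is a scaffold of histone acetyltransferase complexes. The comparison below asks where either protein sits on the genes of the methylation machinery itself.

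The sequences under the peaks that carry the results are printed first, read from GRCh38 on the strand of the gene, 5′ to 3′. Capitals mark an exact match to a searched consensus word. The RBBP5 run (chr1:205122185-205122355, minus strand, 377 to 207 bp upstream of the start site) covers the summit of the strongest CHD8 promoter peak among the 10 genes and the summit of the TRRAP peak inside it. The KMT2D run (chr12:49060765-49060922, minus strand, from 128 bp upstream to 29 bp past the start site) covers the summit of the second strongest CHD8 promoter peak and that of its TRRAP peak, with an E-box word (CACGTG) in capitals. The KMT2A run (chr11:118436122-118436288, plus strand) and the KMT2B run (chr19:35717805-35718002, plus strand) cover the strongest summits at promoters with several TRRAP peaks, and capitals mark the SP word (GGGCGGGG), which in KMT2B appears as overlapping reverse complements. The SETD1B run (chr12:121800510-121800660, plus strand) lies 3499 to 3349 bp upstream of the start site, around the strongest TRRAP summit near any of the genes. The DPY30 run (chr2:32039776-32039902, minus strand, from 97 bp upstream to 29 bp past the start site) holds the summit of the weakest CHD8 promoter peak.
RBBP5: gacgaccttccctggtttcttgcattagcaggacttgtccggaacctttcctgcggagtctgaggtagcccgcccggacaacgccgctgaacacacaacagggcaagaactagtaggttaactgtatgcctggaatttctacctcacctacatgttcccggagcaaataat
KMT2D: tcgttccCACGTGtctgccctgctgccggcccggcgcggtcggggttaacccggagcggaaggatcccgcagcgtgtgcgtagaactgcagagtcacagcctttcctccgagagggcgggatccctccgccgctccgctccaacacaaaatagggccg
KMT2A: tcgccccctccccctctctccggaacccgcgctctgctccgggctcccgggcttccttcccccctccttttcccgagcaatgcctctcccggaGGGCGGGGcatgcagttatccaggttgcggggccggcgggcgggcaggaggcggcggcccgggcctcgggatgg
KMT2B: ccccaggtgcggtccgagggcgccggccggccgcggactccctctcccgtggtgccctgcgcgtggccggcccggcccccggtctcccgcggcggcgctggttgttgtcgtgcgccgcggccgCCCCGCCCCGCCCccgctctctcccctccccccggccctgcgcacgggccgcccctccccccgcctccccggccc
SETD1B: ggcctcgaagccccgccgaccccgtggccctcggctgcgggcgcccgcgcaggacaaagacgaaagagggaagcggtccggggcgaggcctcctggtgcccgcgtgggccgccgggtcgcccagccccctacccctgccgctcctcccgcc
DPY30: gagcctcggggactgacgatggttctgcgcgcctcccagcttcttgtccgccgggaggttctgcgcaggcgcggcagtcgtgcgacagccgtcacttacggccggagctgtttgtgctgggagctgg

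All 10 genes had a CHD8 promoter peak, that is, a peak overlapping the 1 kb on either side of the canonical start site. Among all 20033 protein-coding genes, 55.9% had one. A TRRAP promoter peak was present at 8 of the 10 genes, against 34.9% of all genes, and each of these 8 also had CHD8, against 34.0% of all genes with both. The 2 genes with CHD8 and no TRRAP promoter peak were SETD1B and DPY30, and 22.0% of all genes had that combination. Among all genes with a CHD8 promoter peak, 60.7% also had TRRAP, against 8 of 10 here. The methyltransferase genes had CHD8 in 6 of 6 cases and TRRAP in 5 of 6, and the core genes had CHD8 in 4 of 4 and TRRAP in 3 of 4. The observed over expected CpG ratio around these start sites ran from 0.635 at DPY30 to 0.932 at KMT2C, with a median of 0.835 against 0.725 over all genes; its part in these counts was not tested. Of the 11207 genes with a CpG ratio inside that range, 77.4% had a CHD8 promoter peak, 48.8% a TRRAP promoter peak and 47.6% both. Peaks above the median rank of their own list were found at 9 of the 10 promoters for CHD8 (42.5% of all genes) and at 6 for TRRAP (19.5% of all genes).

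**Figure D1:**
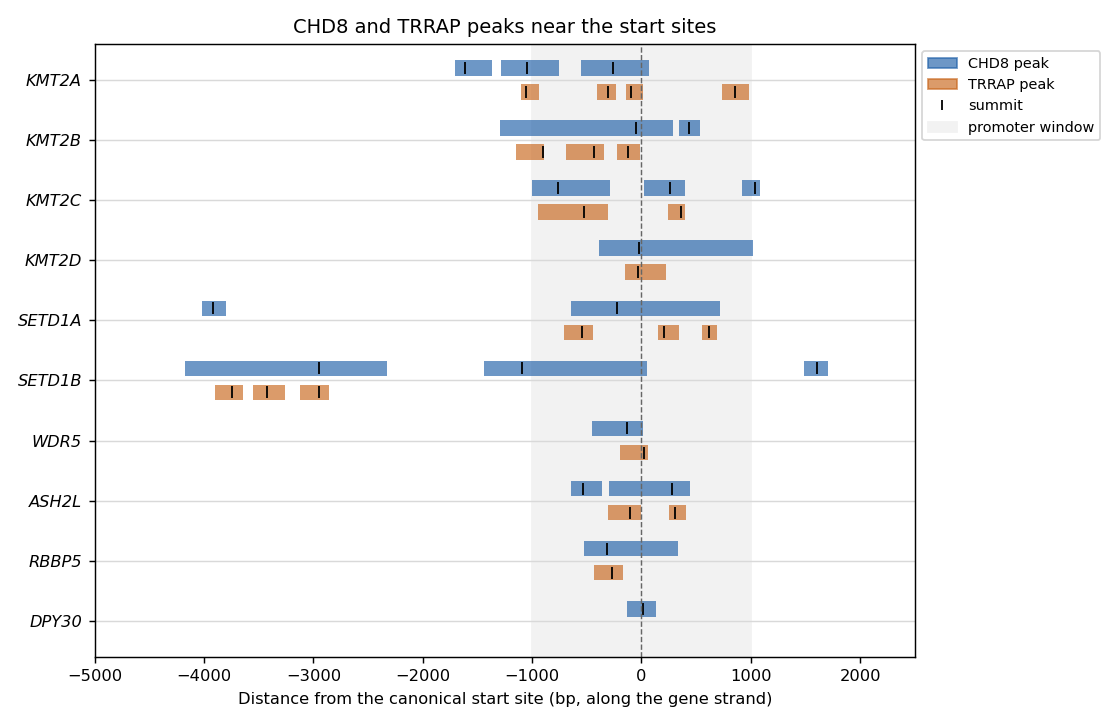
Peaks of the CHD8 list (upper bar of each row) and the TRRAP list (lower bar) by distance from the canonical start site in bp along the gene strand, with summits as ticks and the promoter window shaded. CHD8 bars reach the window at all 10 genes, TRRAP bars at 8, and the 3 TRRAP peaks of SETD1B lie 2946 to 3747 bp upstream; peaks more than 2500 bp past the start site are not drawn.

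Peak strength is given below by the fold, the authors' linear ratio of signal at the peak over the peak caller's background, and by the −log10 q, the authors' significance of the peak; both are used only within a list. Over the 10 genes the strongest CHD8 promoter peak had a median fold of 16.4 (lowest 8.43, highest 53.1), against a median of 12.0 over the 11208 genes with such a peak. By −log10 q, 8 of the 10 genes lay above the median gene of the list (21.2). The strongest TRRAP promoter peak had a median fold of 11.0 (7.21 to 13.9, 8 genes), against 8.65 over 7000 genes, and 6 of the 8 genes lay above the median −log10 q of 11.0. In the CHD8 list RBBP5 (53.1) and KMT2D (38.9) stood apart, and the folds of the other 8 genes lay between 8.43 and 20.4. Read totals are unknown for both lists, so these values carry no counting interval.

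**Figure D2:**
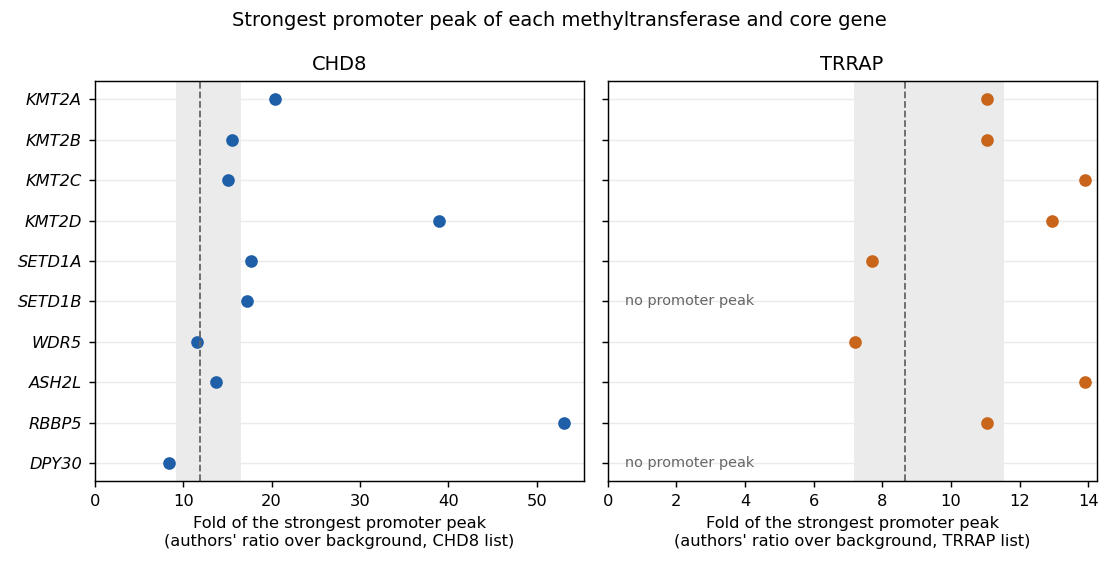
Fold of the strongest promoter peak of each gene (authors' ratio over background, linear axis from 0), CHD8 list on the left and TRRAP list on the right, 1 library each. The dashed line and grey band give the median and the 25th to 75th percentile over all genes with a promoter peak; RBBP5 (53.1) and KMT2D (38.9) stand far above the CHD8 band (9.31 to 16.4), and no TRRAP fold exceeds 13.9.

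Among the methyltransferase genes, KMT2D, which encodes an enhancer H3K4 monomethyltransferase mutated in Kabuki syndrome, had the strongest CHD8 peak. It lay at chromosome 12, 49059776 to 49061185, with a fold of 38.9, a −log10 q of 115 and a width of 1410 bp, and 200 of the 11208 genes with a CHD8 promoter peak had a higher −log10 q. Its CHD8 summit was 23 bp upstream of the start site. The only TRRAP peak of KMT2D (49060574 to 49060941, fold 12.9) lay wholly inside the CHD8 peak, and the summits were 5 bp apart. This was the closest pair of summits at any of the 10 promoters.

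KMT2C, the paralogue of KMT2D, carried a different arrangement, with 3 CHD8 peaks and 2 TRRAP peaks touching the promoter window (3.41% of the genes with a CHD8 promoter peak had 3 or more). The strongest CHD8 peak (chromosome 7, 152436292 to 152437006, fold 15.1) had its summit 765 bp upstream of the canonical start and 124 bp from another annotated KMT2C start. The strongest TRRAP peak of KMT2C (152436312 to 152436949, fold 13.9) lay inside it and was 638 bp wide, wider than the strongest TRRAP promoter peak of 91.1% of the 7000 genes with one. Weaker peaks at 152435607 to 152435984 (CHD8, fold 9.31) and 152435603 to 152435761 (TRRAP, fold 6.26) had summits in coding exon 1. The weakest CHD8 peak (152434919 to 152435082, fold 6.66) was centred in intron 1. The summit sequences of this intronic CHD8 peak and of the weaker TRRAP peak occur a median of 2 times in the reference, and which copy the reads came from was not tested. KMT2C is 302 kb long, and past these peaks its body held no peak of either list. Among the 1502 protein-coding genes of at least 200 kb, 41.8% had a CHD8 peak and 28.0% a TRRAP peak in the body beyond the promoter window.

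KMT2A, the founding MLL gene, had CHD8 peaks at chromosome 11, 118435938 to 118436559 (fold 20.4, summit 264 bp upstream) and 118435208 to 118435734 (fold 14.6, 1048 bp upstream). A weaker CHD8 peak, at 118434787 to 118435125 (fold 7.98, 1618 bp upstream), lay outside the window and 332 bp from the start of the lncRNA ENSG00000255384. TRRAP formed 4 separate peaks touching the window of KMT2A, with folds of 8.65, 11.0, 6.26 and 7.69 from the upstream to the downstream side. The summit of the first lay 1060 bp upstream, outside the window, and 226 bp from the start of the same lncRNA. The first 3 lay wholly inside CHD8 peaks. The last one (118437227 to 118437471) overlapped no CHD8 peak and was the only TRRAP peak of the 10 genes without one. Its summit lay in intron 1, 857 bp past the canonical start site and 157 bp from another annotated KMT2A start.

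KMT2B, the closest relative of KMT2A, had a CHD8 peak of 1586 bp (chromosome 19, 35716708 to 35718293, fold 15.5, summit 52 bp upstream), wider than that of 97.5% of the genes with a CHD8 promoter peak. A second CHD8 peak in intron 1 (35718347 to 35718542) had a fold of 7.54. CHD8 peaks covered 74.3% of the promoter window of KMT2B. Inside the broad CHD8 peak lay 3 TRRAP peaks, at 35716859 to 35717115 (fold 5.78), 35717316 to 35717661 (fold 8.17) and 35717781 to 35717992 (fold 11.0), and the highest fold was in the peak nearest the start site.

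SETD1A and SETD1B, the catalytic subunits of the SET1 complexes, had CHD8 promoter peaks of nearly equal strength and differed in where TRRAP lay. At SETD1A the CHD8 peak (chromosome 16, 30957113 to 30958468, fold 17.7, 1356 bp wide) had its summit 225 bp upstream. It overlapped 3 TRRAP peaks, at 30957050 to 30957312 (fold 7.69), 30957905 to 30958101 (fold 5.78) and 30958305 to 30958440 (fold 7.21). The first of these was centred 9 bp from the start of the divergent lncRNA ENSG00000275263. In the same order, the 3 TRRAP summits lay 86, 11 and 80 bp from the nearest annotated SETD1A start. A further CHD8 peak of SETD1A (30953738 to 30953954, fold 8.87) had its summit 3916 bp upstream, with no annotated start within 1 kb.

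At SETD1B the CHD8 promoter peak (chromosome 12, 121802572 to 121804062, fold 17.3) extended upstream, with its summit 1094 bp from the SETD1B start and 569 bp from the start of the divergent lncRNA LINC01089. It therefore touched the promoter window without having its summit there, and it overlapped no TRRAP peak. TRRAP instead lay further upstream, around the start of the lncRNA ENSG00000274292. There a CHD8 peak of 1853 bp (121799831 to 121801683, fold 16.4), the widest of the 10 genes, held 3 TRRAP peaks. The middle one (121800458 to 121800747, fold 23.9, −log10 q 54.2) was the strongest TRRAP peak near any of the 10 genes, at rank 470 of 14735, and its summit was 3424 bp upstream of SETD1B and 212 bp from the lncRNA start. The flanking TRRAP peaks were at 121800108 to 121800367 (fold 9.60) and 121800884 to 121801149 (fold 6.73). Inside SETD1B, CHD8 alone had weak peaks in intron 3 (121805493 to 121805718, fold 7.10) and intron 6 (121811998 to 121812205, fold 9.31).

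Of the core genes, RBBP5 had the strongest CHD8 promoter peak of all 10 genes, at chromosome 1, 205121643 to 205122505, with a fold of 53.1 and a −log10 q of 172. It ranked 101 among the 23393 CHD8 peaks, and 48 of the 11208 genes with a CHD8 promoter peak had a higher −log10 q. The width of 863 bp was less extreme, above 72.1% of those genes. The TRRAP peak of RBBP5 (205122145 to 205122415, fold 11.0) lay inside the CHD8 peak with its summit 50 bp away, and its −log10 q of 17.4 was shared with the strongest TRRAP peaks of KMT2A and KMT2B. RBBP5 was first of the 10 genes in the CHD8 list and tied with KMT2A and KMT2B, behind 3 other genes, in the TRRAP list. Its start site was not among the richest in CpG, with a ratio of 0.697 and a GC content of 52.9%, higher than at 22.3% of all genes.

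ASH2L had 2 CHD8 and 2 TRRAP peaks in its window. The stronger CHD8 peak (chromosome 8, 38105233 to 38105971, fold 13.7) had its summit 281 bp past the start site, in intron 1. The stronger TRRAP peak of ASH2L (38105219 to 38105526, fold 13.9) was centred 102 bp upstream, 383 bp from that CHD8 summit, and it tied with KMT2C for the highest TRRAP promoter −log10 q of the 10 genes. The second TRRAP peak (38105779 to 38105931, fold 8.17) was 28 bp from the CHD8 summit. Relative to the canonical start site, ASH2L therefore had its stronger TRRAP summit upstream and the summit of its stronger CHD8 peak downstream. Other annotated ASH2L starts lay closer, 66 bp from that TRRAP summit and 17 bp from that CHD8 summit. CHD8 peaks without TRRAP lay at 38104887 to 38105170 (fold 7.98) and, in intron 14, at 38138169 to 38138327 (fold 6.66), the latter 767 bp from another annotated ASH2L start.

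WDR5 had 1 peak of each list, both weaker than the median gene of their list. The CHD8 peak (chromosome 9, 134135634 to 134136095, fold 11.5) had its summit 130 bp upstream of the start site, between it and the start of the divergent lncRNA WDR5-DT 310 bp away. The TRRAP peak of WDR5 (134135890 to 134136143, fold 7.21) was centred 26 bp past the start site in untranslated exon 1, and the pair overlapped by 206 bp. DPY30 had the weakest CHD8 promoter peak of the 10 genes (chromosome 2, 32039670 to 32039941, fold 8.43, 272 bp wide, summit 13 bp past the start site), and 15.5% of the genes with a CHD8 promoter peak had a lower −log10 q. DPY30 was also the only one of the 10 genes whose CHD8 promoter peak fell below the median rank of the list, and no TRRAP peak touched its promoter window.

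**Figure D3:**
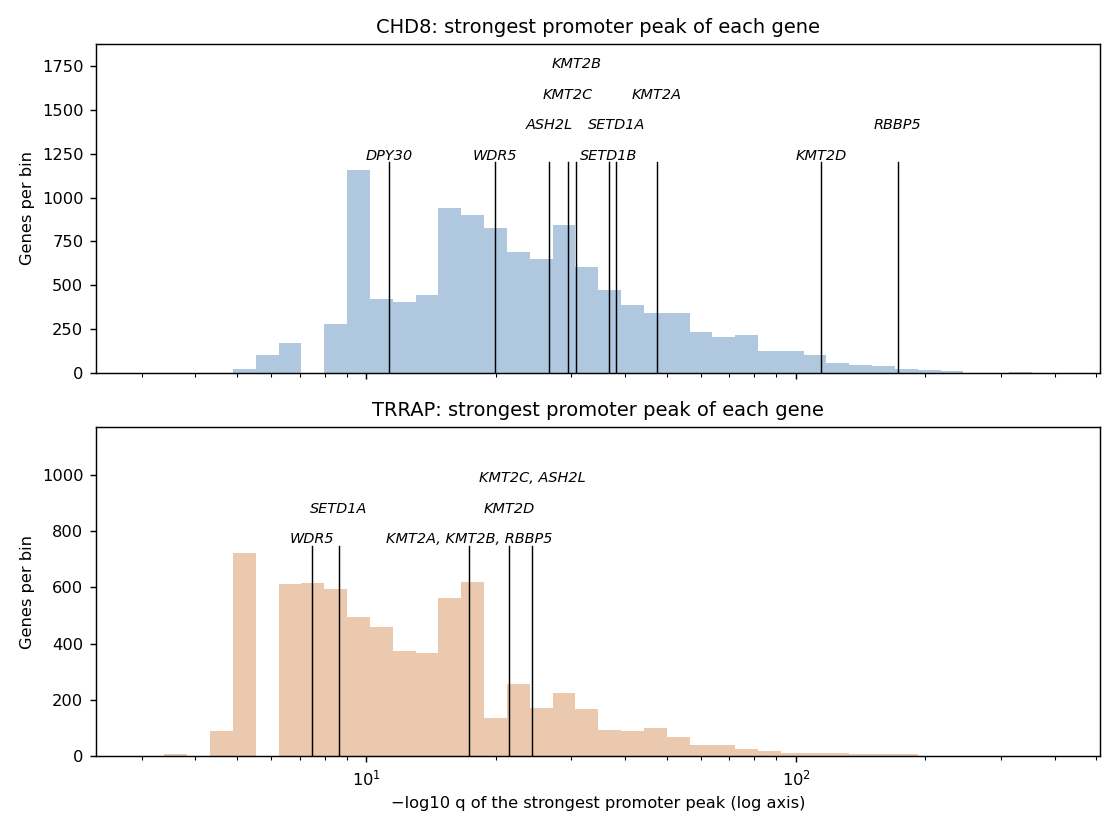
Number of genes by −log10 q of their strongest promoter peak (log axis), over 11208 genes for CHD8 and 7000 for TRRAP, with the genes described here as vertical lines. In the CHD8 panel they run from DPY30 at 11.3 to RBBP5 at 172, and in the TRRAP panel the 8 genes lie between 7.49 and 24.3.

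Counted from 5 kb upstream of the gene to its end (832 kb in all), the 10 genes held 24 CHD8 peaks and 22 TRRAP peaks, and every gene had at least 1 of each. Over all protein-coding genes, 64.1% had a CHD8 peak and 43.3% a TRRAP peak in the same span. Promoter windows held 15 of the 24 CHD8 peaks and 17 of the 22 TRRAP peaks. The numbers depend on how finely signal was divided into peaks, since joining peaks less than 500 bp apart left 14 TRRAP peaks.

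The 9 CHD8 peaks away from the window belonged to 6 genes (24.3% of all genes had such a peak), and the 5 TRRAP peaks to SETD1B and DPY30 (15.2% of all genes). Counting any overlap with the gene body beyond the window, CHD8 had 6 peaks in 4 genes (15.4% of all genes). Under the same rule TRRAP had 2 peaks, both in the DPY30 span (9.41% of all genes). Of these 4 genes, only SETD1B and ASH2L had CHD8 body summits inside the canonical transcript. Most peaks away from the window were close to another annotated start. Of the 9 CHD8 peaks, 4 lay within 1 kb of the start of another gene, 2 within 1 kb of another start of the same gene, and 3 near no annotated start: the upstream peak of SETD1A, the intron 6 peak of SETD1B and 1 in the DPY30 span. All 5 TRRAP peaks lay within 1 kb of the start of another gene. At the 3′ end of KMT2D, a CHD8 peak (49017988 to 49019103, fold 15.9) was centred 102 bp from the start of PRKAG1, which encodes a subunit of AMP-activated protein kinase. The summit of this peak lay past the end of KMT2D, and only its edge overlapped the gene.

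The DPY30 span is long because its gene record covers 172 kb, whereas its canonical transcript covers 15.9 kb. Past the canonical transcript it takes in the start of MEMO1. The MEMO1 start carried a CHD8 peak (32010265 to 32011238, fold 13.7, summit 58 bp from the start) and TRRAP peaks at 32010636 to 32011132 (fold 8.65) and 32010286 to 32010439 (fold 7.21). The summit sequence of the second of these TRRAP peaks occurs a median of 2 times in the reference, and which copy the reads came from was not tested. A weak CHD8 peak followed at 32009280 to 32009599 (fold 6.66). Both TRRAP peaks counted for DPY30 were thus at the MEMO1 promoter.

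Of the 22 TRRAP peaks, 21 overlapped a CHD8 peak by at least 1 bp (95.5%, Wilson 95% interval 78.2 to 99.2), against 86.8% of the whole TRRAP list. At promoters 16 of 17 did, against 94.0% of all TRRAP peaks there. The intervals cover counting error only and treat peaks as independent. Several TRRAP peaks shared 1 CHD8 peak at KMT2A, KMT2B, SETD1A, SETD1B, ASH2L and DPY30, so they were not independent. Wholly inside a CHD8 peak were 17 of the 22. In the other direction, 12 of the 24 CHD8 peaks overlapped TRRAP (50.0%, 31.4 to 68.6), against 48.6% of the whole CHD8 list. At promoters these were 10 of 15 (66.7%, 41.7 to 84.8), against 51.2% of all CHD8 peaks at promoters. All of these list-wide shares lay inside the intervals, which is a description and not a test. With centres no more than 200 bp apart required instead, 9 of the 22 TRRAP peaks counted as shared. The CHD8 peaks of the 10 genes had a median width of 494.5 bp and the TRRAP peaks of 255.5 bp, and over the whole lists the medians were 376 and 229 bp.

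Several TRRAP peaks in 1 promoter window were frequent at the methyltransferase genes, a count made after the peaks had been seen. KMT2A had 4 TRRAP peaks and KMT2B and SETD1A had 3 each. Thus 3 of the 8 genes with TRRAP had at least 3, against 3.10% of the 7000 genes with a TRRAP promoter peak. Of the 20 other pathway genes described below, SETD7 alone had 3. Windows with 4 or more occurred at 20 of those 7000 genes (0.286%). After joining peaks less than 500 bp apart, KMT2A alone kept 3 peaks, as 1 of 3 such genes among the 7000 (0.0429%). Both KMT2A counts include a peak that only touched the window, with its summit 1060 bp upstream of the start site. For CHD8, KMT2A, KMT2B, KMT2C and ASH2L had at least 2 peaks touching the window, 4 of 10 genes against 23.2% of the genes with a CHD8 promoter peak. Summits outside the window were counted here at KMT2A (1048 bp upstream) and KMT2C (1037 bp past the start site). This CHD8 count was not repeated after joining. Over the whole spans, joining peaks less than 500 bp apart left 19 of the 24 CHD8 peaks. The covered stretch was also long. CHD8 peaks covered a median of 1038.5 bp of the window at the 10 genes, against 707.5 bp over all genes with a peak. TRRAP peaks covered 528.5 bp at the 8 genes, against 316 bp. This was not particular to these genes: at the other pathway genes described below the medians were 1061 bp for CHD8 (20 genes) and 498 bp for TRRAP (14 genes).

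The strongest summits lay mostly upstream of the canonical start site, as they did over all genes. The strongest CHD8 promoter summit was upstream at 8 of 10 genes (58.3% of genes with a CHD8 promoter peak) and downstream at ASH2L and DPY30. The strongest TRRAP promoter summit was upstream at 7 of 8 genes (63.3%) and downstream at WDR5. Some of these upstream summits lay near other starts, such as that of TRRAP at KMT2C, 35 bp from another annotated KMT2C start. The downstream CHD8 summit of ASH2L lay 17 bp from another annotated ASH2L start.

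Exact consensus words, both strands, were looked for within 100 bp of the strongest promoter summit of each list. The E-box CACGTG, which MYC and MAX bind, occurred within that distance of the CHD8 summit and of the TRRAP summit of KMT2D alone among the 10 genes. It lay 118 bp upstream of the start site, 95 bp upstream of the CHD8 summit and 90 bp upstream of the TRRAP summit, near the limit of the search. Over all genes the E-box occurred at 6.94% of CHD8 summits and 9.13% of TRRAP summits. The SP word GGGCGGGG occurred near the CHD8 summits of WDR5, KMT2A and KMT2B (26.4% of all genes with a CHD8 promoter peak) and near the TRRAP summits of KMT2C, WDR5, KMT2A, SETD1A and KMT2B (32.1%). The YY1 word AAGATGGCG was found at the CHD8 summit of KMT2B, 17 bp past the start site (5.53%), and the NFY word CCAAT at those of ASH2L, SETD1A and SETD1B (18.4%). At the 8 TRRAP summits neither the YY1 word nor the NFY word was found (3.36% and 16.1% over all genes). Another 5 words were absent from all 10 CHD8 and 8 TRRAP summits. Their shares over all CHD8 and TRRAP summits were 1.08% and 1.51% for E2F (TTTGGCGC or TTTCGCGC) and 7.70% and 4.74% for ETS (CCGGAAGT). For NRF1 (CGCATGCG) they were 1.97% and 2.06%, for CRE (TGACGTCA) 1.96% and 2.83%, and for BANP (CTCGCGAG) 1.12% and 1.51%. No word contains another. The runs printed above for RBBP5, SETD1B and DPY30 held none of the words. A match is a description of the letters and not a measured binding site.

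The other genes of the H3K4 methylation pathway were taken from a list of 20: accessory subunits and processing factors of the complexes, H3K4 demethylases, and the distant SET-domain genes KMT2E and SETD7. All 20 had a CHD8 promoter peak (55.9% of all genes), and 14 also had TRRAP (34.0% of all genes with both). Among all genes with a CHD8 promoter peak, 60.7% also had TRRAP, against 14 of 20 here (70.0%). By class, CHD8 and TRRAP were together at 8 of 13 accessory genes, 4 of 5 demethylase genes and 2 of 2 distant SET-domain genes. Without a TRRAP promoter peak were MEN1 (menin, which binds KMT2A and KMT2B), PAGR1 and KDM6A (partners of KMT2C and KMT2D), BOD1L1 (a SETD1A partner), TASP1 (the protease that cleaves KMT2A and KMT2B) and KDM5C. Of these, PAGR1 (fold 30.1) and KDM5C (fold 27.4) had CHD8 peaks well above the median fold of 12.0. Over the 20 genes the strongest CHD8 promoter peak had a median fold of 19.5, against 16.4 at the 10 methyltransferase and core genes. For TRRAP the median fold was 12.9 over 14 genes, against 11.0.

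The strongest CHD8 promoter peaks of the 20 were at HCFC1, a subunit of several COMPASS complexes (chromosome X, 153970420 to 153973068, fold 64.1, 2649 bp wide), at KDM5A (chromosome 12, 388808 to 389990, fold 39.4) and at KMT2E (chromosome 7, 105012325 to 105014480, fold 34.1). Only 12 genes had a CHD8 promoter peak of higher −log10 q than HCFC1. The CHD8 peak of HCFC1 also reached the start of the divergent gene TMEM187, 936 bp away. For TRRAP the strongest were at KMT2E (105012380 to 105013665, fold 53.6), KDM5B (chromosome 1, 202808218 to 202808671, fold 22.0) and KDM1A (chromosome 1, 23019255 to 23019580, fold 21.1). The TRRAP peak of KMT2E had its summit 1397 bp upstream of the canonical start, outside the window that its downstream end reached, and 11 of the 7000 genes with a TRRAP promoter peak had a higher −log10 q. All 3 of these TRRAP folds exceeded the highest TRRAP promoter fold of the 10 methyltransferase and core genes (13.9 at KMT2C and ASH2L). This order depends on which peaks touch the window. The TRRAP peak upstream of SETD1B, outside its window, had a fold of 23.9, above KDM5B and KDM1A and below KMT2E.

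**Figure D4:**
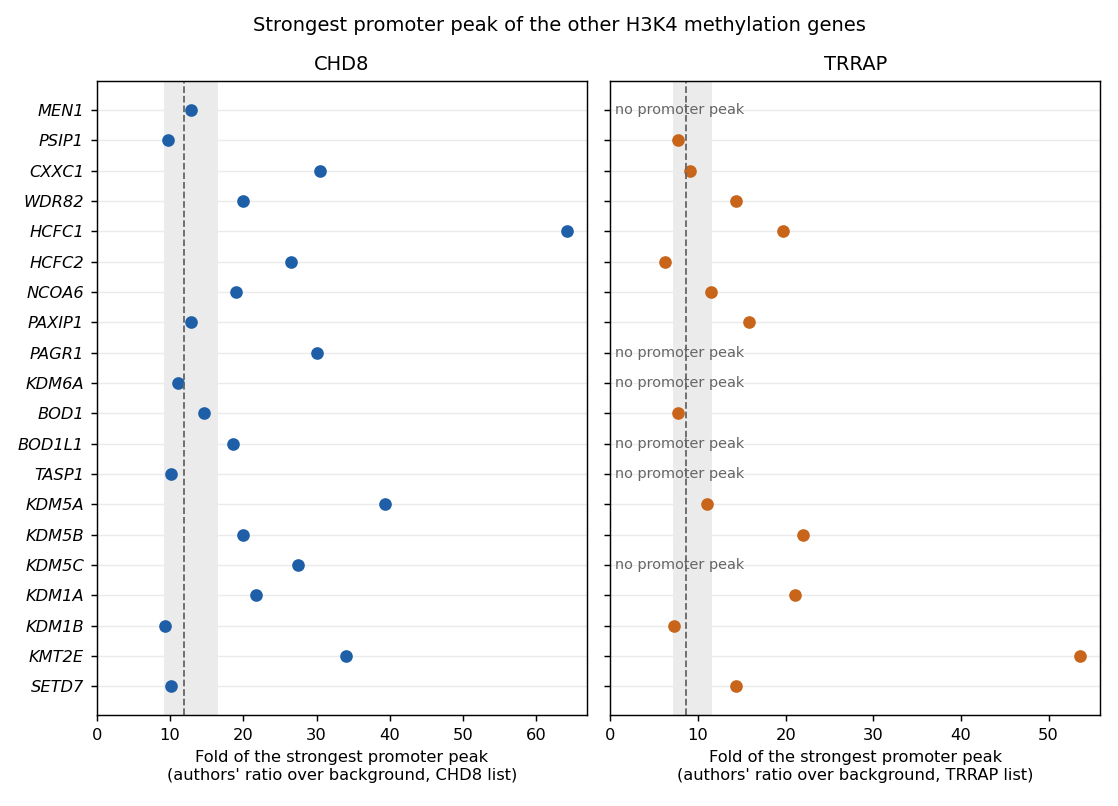
Fold of the strongest promoter peak of the 20 other H3K4 methylation genes (linear axis from 0), CHD8 list on the left and TRRAP list on the right, with the median and 25th to 75th percentile over all genes with a promoter peak as a dashed line and grey band. HCFC1 (64.1) is highest for CHD8 and KMT2E (53.6) for TRRAP, and 6 genes have no TRRAP promoter peak.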

How the data were processed

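Peak lists of 1 CHD8 and 1 TRRAP library were used; the members and gene lists were chosen with earlier results of these data known. HISAT2, MACS2 2.1.1.20160309 and GRCh38 are named in the submitters' processing notes, without roles or settings; the control and read totals are not given in the sources used here. Per the list names, the authors set a false discovery rate of 0.0001 for CHD8 and of 0.001 for TRRAP. The deposited fold (a linear ratio) and the deposited −log10 p and −log10 q are the authors' own values per peak, and in every peak the deposited score was the −log10 q times 10 without its decimals. The deposited summit gives an offset in the peak. Positions are counted from 1.

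Starts, exons and other genes came from GENCODE release 44, and all main-chromosome peaks ended within the GRCh38 sequences. Ranks within a list went by −log10 q, with ties broken by fold, width and position. The median number of genome copies was taken over the 32-base words in the 101 bp around a summit, without alternate contigs. CpG ratios used 500 bp on each side of the start. The SP, NRF1 and BANP words are 8-base cores that replaced longer words after those had been searched. Overlap queries were tested on simulated data. The genes named were all 10 members with their strongest promoter peak and, up to 6, all other peaks; of the 20 other genes, those lacking a peak and the 3 strongest per list. The alternatives were other windows, start sites, ranks, overlap rules and single-copy summits. Tables and overlaps were made with pandas 2.3.3 and numpy 2.4.6 in Python 3.11.15, intervals with scipy 1.17.1, genome words with samtools 1.23.1, pysam 0.24.0 and numba 0.67.0, and plots with matplotlib 3.10.9.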

Additional observations from a re-analysis of the deposited data

How the results depend on the processing

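Of the 62 values recomputed under an alternative, 54 stayed within 1.5 times the reported count. The promoter counts of the 10 genes and of the 20 other genes all did so. Above the median rank of each list, the 10 genes held 13 CHD8 peaks and 10 TRRAP peaks, 3 of each lay away from the promoter window, and 10 of 10 TRRAP peaks overlapped CHD8. A list cut at its median rank can only give the same or a lower count of peaks. Joining peaks closer than 500 bp left 14 TRRAP peaks, and centres within 200 bp left 9 shared TRRAP peaks. The joined count of windows with 3 or more TRRAP peaks, an alternative added after seeing the data, was 1. Requiring the summit in the window removed the CHD8 call of SETD1B (9 of 10 genes), and ranks above the median removed that of DPY30. Unknown read totals limit every value: a missing peak means only that none was called.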
